A study of Mus musculus with 5 samples.

Results

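Signal was examined for 9 genes of orphan nuclear receptors that act in endoderm and its neighbours, Nr5a2, Hnf4a, Hnf4g, Nr2f1, Nr2f2, Nr2f6, Nr6a1, Nr0b2 and Nr1h4, in dorsal pancreatic buds of E10.5 mouse embryos that lacked Ptf1a or carried a single functional copy. The genes were chosen by family with the null against heterozygote differences of these arrays already known, so their differences are a description and support nothing on their own. They are 9 of 18193 genes with a symbol on the array, and 27 of the 45037 probe sets tested. All probe sets annotated to these symbols alone were taken, without regard to signal. Adult heterozygotes for a Ptf1a mutant allele on a C57BL/6J background were mated, so the control arrays also come from mutant carriers and no wild-type bud was profiled. Each of the 3 null and 2 heterozygote arrays (Affymetrix Mouse Genome 430 2.0) was given RNA pooled from 3 buds that had been freed of mesenchyme by hand and amplified through 2 rounds from the poly(A) tail. Nothing in the labels gives the litters, and p-values therefore reflect only how far these pools differ, which may be technical.

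Nuclear receptors are transcription factors with a zinc finger domain that reads a short DNA hexamer and a pocket that can hold a small lipophilic ligand. Those called orphan were found before any ligand was known. NR5A2 (LRH-1) binds DNA as a monomer, maintains early endoderm and works with the PTF1 complex on acinar genes in the adult pancreas. HNF4A and HNF4G bind as homodimers and drive liver, gut and kidney epithelial genes, NR2F1, NR2F2 and NR2F6 (the COUP-TF group) mostly repress and are prominent in mesenchyme, veins and neural tissue, and NR6A1 (GCNF) silences pluripotency genes. NR0B2 (SHP) has no DNA-binding domain and blocks NR5A2 and HNF4A, and it is itself induced by NR1H4 (FXR), the bile acid receptor.

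The arrays had median deposited signals between 13.7 and 17.5, and between 60.9% and 65.2% of probe sets lay above background, set on each array from Bacillus subtilis control probe sets at 3.03 to 3.29 on the normalised log2 scale. Ptf1a, the targeted gene, had log2 signals of 7.10 and 7.33 in heterozygotes against 5.21, 6.07 and 5.00 in nulls. The difference was -1.79 (limma adjusted p = 0.651 untrended and 0.457 trended), so even this gene was not called. Its signal was above background on all 5 arrays, nulls included. Of the other markers of the bud, Pdx1, Mnx1, Sox9, Cdh1 and Gcg were above background on all 5 arrays. Mnx1 had 7.31 and 7.30 against 5.11, 4.36 and 4.41, a difference of -2.68 (limma adjusted p = 0.369 untrended and 0.0612 trended). Pdx1 had 7.61 and 7.73 against 7.05, 7.32 and 7.13, and the groups overlapped at Sox9, Cdh1 and Gcg. Cpa1, an early marker of pancreatic progenitors, was above it on the 2 heterozygote arrays alone. Red cell markers were lower in nulls for 8 of 9 genes measured, with summed signals of 9560 and 12000 in heterozygotes and 7970 to 8870 in nulls. Across all probe sets the limma fit with a common prior variance (untrended) called 0 at an adjusted p under 0.05, or 0%, with 2484 at an unadjusted p under 0.05. The limma fit with a prior variance that follows signal (trended) called 8, or 0.0178%. Neither fit called any of the 27 receptor probe sets.

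PTF1A with an E-protein binds the E-box CANNTG, and the PTF1 complex also reads TGGGAA through RBPJ or RBPJL. These motifs, and the hexamer AGGTCA read by nuclear receptors, were searched on both strands from 250 bases before to 50 after each start site in RefSeq (GRCm38.p6), which gave 12 windows for 8 of the 9 genes. Windows of Nr5a2, whose signal was lower in nulls, and of Hnf4a, whose signal was not, are shown for comparison, 5' to 3' on the gene's strand, with every match in capitals. The first Nr5a2 window is chr1:136960399-136960698 (minus strand) and the second, at a start site within the gene, is chr1:136953581-136953880 (minus strand). The Hnf4a windows are chr2:163506607-163506906 and chr2:163546905-163547204 (plus strand), the distal and proximal promoters respectively.
Nr5a2 first start: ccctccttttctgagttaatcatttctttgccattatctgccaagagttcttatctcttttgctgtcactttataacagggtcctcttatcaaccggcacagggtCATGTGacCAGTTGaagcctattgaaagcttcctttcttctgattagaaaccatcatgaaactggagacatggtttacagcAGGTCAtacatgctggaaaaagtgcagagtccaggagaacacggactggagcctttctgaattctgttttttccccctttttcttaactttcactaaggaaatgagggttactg
Nr5a2 second start: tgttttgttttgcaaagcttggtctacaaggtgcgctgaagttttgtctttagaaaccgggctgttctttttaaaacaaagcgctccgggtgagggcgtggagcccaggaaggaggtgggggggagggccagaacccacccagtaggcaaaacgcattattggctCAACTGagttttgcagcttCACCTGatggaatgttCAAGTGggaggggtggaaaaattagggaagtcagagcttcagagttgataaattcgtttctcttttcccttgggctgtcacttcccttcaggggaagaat
Hnf4a distal start: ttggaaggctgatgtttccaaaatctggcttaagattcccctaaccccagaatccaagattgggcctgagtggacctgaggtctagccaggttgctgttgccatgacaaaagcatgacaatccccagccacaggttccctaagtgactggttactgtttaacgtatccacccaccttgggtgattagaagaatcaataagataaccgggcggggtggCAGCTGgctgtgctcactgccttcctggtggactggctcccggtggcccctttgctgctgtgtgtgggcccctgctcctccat
Hnf4a proximal start: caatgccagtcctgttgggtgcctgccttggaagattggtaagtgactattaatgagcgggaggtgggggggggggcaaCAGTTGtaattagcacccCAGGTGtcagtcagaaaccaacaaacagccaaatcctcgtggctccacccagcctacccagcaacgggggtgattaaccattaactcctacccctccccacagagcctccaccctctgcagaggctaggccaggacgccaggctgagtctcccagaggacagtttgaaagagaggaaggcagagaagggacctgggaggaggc

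The first Nr5a2 window held E-boxes that begin 145 and 137 bases before the start, and an AGGTCA that begins 64 bases before it. The second held E-boxes that begin 85, 66 and 50 bases before the start. The Hnf4a distal window held an E-box 33 bases before the start, and the proximal window held E-boxes 171 and 153 bases before it. No match to TGGGAA lay in these 4 windows. An E-box occurs in 72.3% of the 32851 promoter windows of the same length, TGGGAA in 25.6% and AGGTCA in 16.3%, so matches of this kind are common. Among the other members, TGGGAA was found near a start of Nr6a1, Nr0b2 and Nr1h4, and AGGTCA near a start of Nr6a1 and Nr1h4. These matches are letters in a window and say nothing of binding.

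Nr5a2 had lower signal in nulls at all 4 of its probe sets, and at each of them the 3 nulls lay below both heterozygotes. At the brightest, 1420410_at, log2 signal was 9.59 and 8.76 in heterozygotes and 7.78, 7.95 and 8.07 in nulls. The heterozygote arrays differed from each other by more than the null arrays did, and a gap of 0.69 separated the groups. The means were 9.18 ± 0.59 (SD, n = 2) and 7.93 ± 0.14 (SD, n = 3), a 2.37-fold lower signal in nulls (log2 difference -1.24, SE 0.42). Limma gave this difference an adjusted p of 0.829 (untrended) and 0.366 (trended), from unadjusted p of 0.0310 and 0.000366. In bulk RNA, fewer NR5A2-producing cells in the bud and less Nr5a2 RNA per cell cannot be told apart.

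The other Nr5a2 probe sets pointed the same way with different spreads. At 1449706_s_at, whose suffix marks probes that can match several transcripts, log2 signal was 7.33 and 7.25 in heterozygotes and 3.70, 6.28 and 6.30 in nulls. Null replicate 1 stood far below the other nulls here, and without it the difference was -0.997 in place of -1.86. At 1456521_at the values were 6.27 and 7.47 against 5.83, 6.24 and 6.04. The groups at this probe set were separated by only 0.031, and without heterozygote replicate 2 the difference went from -0.84 to -0.24, and without heterozygote replicate 1 to -1.43. At 1449707_at the values were 3.60 and 2.97 against 2.47, 2.13 and 1.83, so the probe set was above background on heterozygote replicate 1 alone and no fold is given. None of these 3 probe sets passed in either limma fit, with adjusted p of 0.880 or more.

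**Figure D1:**
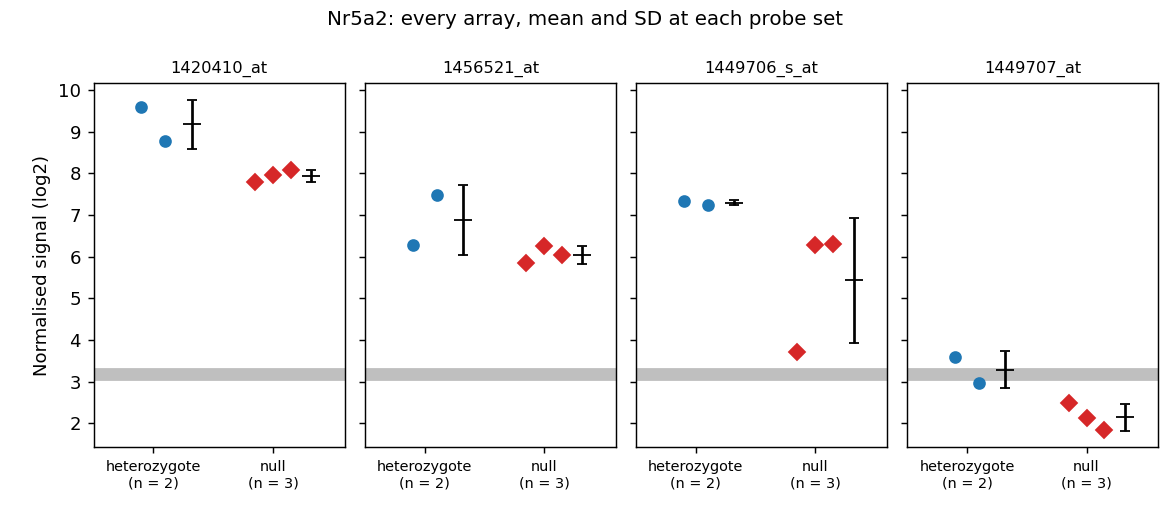
Normalised log2 signal (vertical axis) of the 4 Nr5a2 probe sets in heterozygote (circles, n = 2) and null (diamonds, n = 3) arrays, with mean and SD in black and the range of the background level in grey. The 3 nulls lie below both heterozygotes at each probe set, and null replicate 1 lies at 3.70 at 1449706_s_at.

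A probe set with every null array below both heterozygotes was common, at 10.1% of all probe sets tested, and 9.9% had every null above both. All 4 probe sets of a gene lying below was rare: of 1093 genes with exactly 4 probe sets this held for 2, or 0.183%, namely Nr5a2 and Spon1 (the latter named after its values were seen). The probe sets of a gene share the same 5 RNA pools, so they are repeated readings of these pools and not replicates. Because Nr5a2 was chosen with this difference known, the share is given as background and nothing is read from it. With any array left out the difference at 1420410_at lay between -1.66 (without heterozygote replicate 2) and -0.83 (without heterozygote replicate 1), and its adjusted p in the trended fit between 0.193 and 1.

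Foxa1, a forkhead factor gene of endoderm, was the sole gene of the bud epithelium markers called by either fit, and it was higher in nulls (log2 difference 1.82, limma adjusted p = 0.0219 trended and 0.448 untrended). The trended call was lost with any 1 array left out, at an adjusted p of 0.0863 to 0.362. Of the 17 markers measured, 12 were lower in nulls, 6 with every null below both heterozygotes (35.3% against 10.1% of all genes). Ptf1a, the targeted gene, was among the 6. None of the 17 lay at or below background on every array. The summed signal of the 17 was 4700 and 8370 in heterozygotes and 5120 to 6900 in nulls, so the groups overlapped. Most of this sum came from Gcg (log2 10.57 and 11.85 against 11.77, 11.50 and 11.34) and Insm1 (10.13 and 10.99 against 10.18, 9.75 and 9.67). It therefore says little of the other markers. Epcam, a general epithelial adhesion gene, had log2 signals of 5.96 and 6.60 in heterozygotes and 6.43, 6.39 and 6.30 in nulls, a difference of 0.090. Cdh1, which encodes E-cadherin, had 7.67 and 8.60 against 8.01, 7.50 and 7.63, a difference of -0.43. The part of epithelial content in the Nr5a2 difference was not tested.

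Hnf4a, the receptor of the HNF4 pair with signal above background, had higher means in nulls at all 4 probe sets. The differences of 0.12 to 0.59 were opposite in direction to those of Nr5a2. The larger, 0.57 and 0.59, were at 1427001_s_at and 1421983_s_at, whose suffix marks probes that can match several transcripts. Those at 1427000_at and 1450447_at were 0.17 and 0.12. At the brightest, 1427001_s_at, log2 signal was 5.70 and 6.68 in heterozygotes and 6.50, 7.05 and 6.72 in nulls. Heterozygote replicate 1 was low and replicate 2 lay among the nulls, so the groups overlapped. The means were 6.19 ± 0.69 (SD, n = 2) and 6.76 ± 0.28 (SD, n = 3), a difference of 0.57 (SE 0.46, limma adjusted p = 0.991 untrended and 0.976 trended). At 1421983_s_at the values were 3.98 and 4.54 against 4.76, 4.99 and 4.80, the sole Hnf4a probe set whose groups did not overlap. Without heterozygote replicate 1 the differences at 1427000_at and 1450447_at turned to -0.13 and -0.10, and that at 1427001_s_at was 0.075. Without null replicate 2 the difference at 1450447_at was -0.11.

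The summed signal of hepatoblast markers was 4560 and 6190 in heterozygotes and 6540 to 6630 in nulls, and most of it came from Ttr, the transthyretin gene (log2 11.95 and 12.33 against 12.37, 12.27 and 12.39). By the median of the genes' deviations from their own means, the lowest array was null replicate 3 (-0.374), followed by heterozygote replicate 1 (-0.338). Of 10 hepatoblast genes measured, 6 were higher in nulls and none lay at or below background on every array. Every null lay above both heterozygotes for 2, Afp and Apoa1, and below both for 1, Dlk1 (difference -0.73). Afp had log2 signals of 7.59 and 9.08 in heterozygotes and 9.76, 10.09 and 9.76 in nulls. Its difference was 1.54 (limma adjusted p = 0.869 untrended and 0.360 trended). The lowest array was heterozygote replicate 1 for Afp and Apoa1, and null replicate 3 for Dlk1. Gut epithelium markers were higher for 6 of 11, with summed signals of 234 and 293 in heterozygotes and 266 to 345 in nulls. Among them Cdx1, Cdh17, Isx, Gkn2 and Tff2 were at or below background on every array. The part of liver or gut cells in the Hnf4a values was not tested.

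Hnf4g gave no usable signal. Its 3 probe sets exceeded background on a single occasion, on null replicate 3 at 1450518_at (3.30), and log2 values ran from -1.43 to 3.30. The differences of -2.20, 2.35 and -1.45 disagreed in sign and had SEs of 1.15 to 1.45. No fold is given for them.

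**Figure D2:**
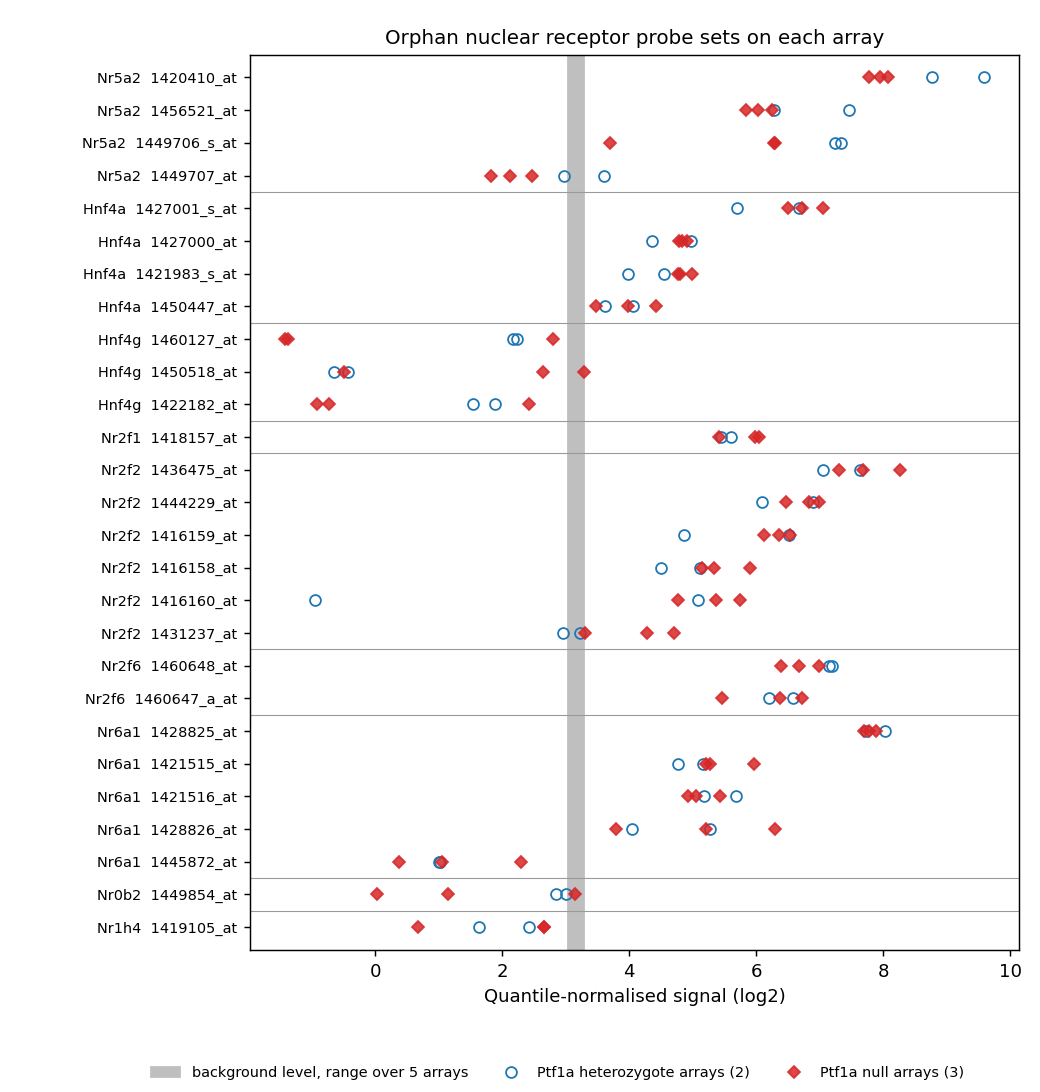
Normalised log2 signal (horizontal axis) of the 27 probe sets on every array, heterozygotes as open circles (n = 2) and nulls as diamonds (n = 3), with the range of the background level in grey. The 3 Hnf4g probe sets and those of Nr0b2 and Nr1h4 lie at or near the grey band or below it, and at Nr2f2 1416160_at heterozygote replicate 2 lies at -0.95.

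Among the COUP-TF genes, Nr2f2 had higher means in nulls at all 6 probe sets and Nr2f6 lower means at both of its own, none of them called. Nr2f2, which encodes COUP-TFII of mesenchyme and veins, had log2 signals at its brightest probe set, 1436475_at, of 7.64 and 7.05 in heterozygotes and 7.31, 7.68 and 8.27 in nulls. The groups overlapped, since heterozygote replicate 1 lay above null replicate 1. The difference was 0.41 (SE 0.47, limma adjusted p = 0.999 untrended and 0.977 trended). It was 0.11 without heterozygote replicate 2, 0.15 without null replicate 3, 0.63 without null replicate 1 and 0.71 without heterozygote replicate 1. Every null exceeded both heterozygotes at 2 of the 6, 1416158_at (difference 0.65) and 1431237_at (at least 1.91-fold higher), by gaps of 0.022 and 0.073, against 9.9% of all probe sets.

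The largest Nr2f2 difference, 3.22 at 1416160_at, rested on heterozygote replicate 2. Log2 signal there was -0.95 on that array, 5.08 on heterozygote replicate 1 and 4.77, 5.74 and 5.36 on the nulls. Without heterozygote replicate 2 the difference was 0.21, and with values raised to background it was 1.10. Without heterozygote replicate 1, which left the outlying array as the lone heterozygote with its spread assumed equal to that of the nulls, it was 6.23 and passed in the trended fit (adjusted p = 0.0434). At 1416159_at and 1444229_at the same array was low as well, and without it their differences turned from 0.65 and 0.26 to -0.17 and -0.14.

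Mesenchyme markers were lowest on the same array. Of 21 measured, 19 were higher in nulls, 9 with every null above both heterozygotes (42.9% against 9.82% of all genes), and the summed signal was 2350 and 1790 in heterozygotes and 2250 to 2830 in nulls. Postn, a matricellular protein gene, had 4.51 and 4.32 in heterozygotes and 6.27, 4.90 and 5.38 in nulls (difference 1.10, not called by either limma fit). Of the 21, 9 were above background on all arrays, and Twist1 was at or below it on every array. Osr1, Nkx3-2, Acta2, Tbx18 and Meox1, among those whose groups did not overlap, were above it on only 3 or 4 arrays. That share therefore rests partly on dim genes. Null replicate 3 had both the highest mesenchyme sum and the highest Nr2f2 signal at 1436475_at. Heterozygote replicate 2 had the lowest of both. The arrays between them ran the other way. Null replicate 2, heterozygote replicate 1 and null replicate 1 had sums of 2250, 2350 and 2640 and log2 signals of 7.68, 7.64 and 7.31. At 1416158_at heterozygote replicate 1 was the lowest array, not heterozygote replicate 2. At 1431237_at both heterozygotes lay at or below background, with deposited values of 8.53 on each, so their order is not read. Vim, the brightest mesenchyme gene, had overlapping groups (log2 10.02 and 9.69 against 9.92, 9.74 and 9.98). Neural crest and glia markers were higher for 8 of 11, with sums of 478 and 365 against 516 to 620. Endothelium markers were higher for 7 of 16, with sums of 1040 and 991 against 773 to 1100. The part of residual mesenchyme, neural crest or vessel in the Nr2f2 values was not tested.

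Nr2f1, which encodes COUP-TFI of neural tissue and neural crest, has a single probe set, 1418157_at. Its log2 signals were 5.61 and 5.44 in heterozygotes and 5.41, 6.05 and 5.98 in nulls, with overlapping groups and a difference of 0.29 (SE 0.39). Nr2f6, which encodes the COUP-TF relative EAR2, had 7.15 and 7.19 in heterozygotes and 6.39, 6.68 and 6.99 in nulls at 1460648_at. Here the groups did not overlap and the heterozygotes were nearly equal (difference -0.48, SE 0.37, limma adjusted p = 0.991 untrended and 0.976 trended). At its other probe set, 1460647_a_at, the groups overlapped, and the difference of -0.21 turned to 0.16 without null replicate 1.

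Nr6a1, the repressor of pluripotency genes, was the steadiest of the members at its brightest probe set, 1428825_at. Log2 signal was 7.73 and 8.03 in heterozygotes and 7.89, 7.78 and 7.70 in nulls, a difference of -0.085 (SE 0.34) that turned to 0.066 without heterozygote replicate 2. Its other 4 probe sets disagreed in direction, from -0.29 at 1421516_at to 0.52 at 1421515_at. At 1421515_at every null lay above both heterozygotes, by a gap of 0.052, and null replicate 1 stood highest at 5.97. Null replicate 1 was also highest at 1428826_at, at 6.29 against 3.79 to 5.28 on the other arrays, and the difference of 0.44 there turned to -0.16 without it and to -0.18 without heterozygote replicate 1. The fifth, 1445872_at, was above background on no array, and its difference of 0.23 turned to -0.29 without null replicate 3.

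The bile acid branch was dim. Nr0b2 had log2 signals of 3.01 and 2.85 in heterozygotes and 1.15, 3.15 and 0.026 in nulls, at or below background on each array, and Nr1h4 had 2.42 and 1.64 against 0.67, 2.66 and 2.66, also at or below it. No fold is given for either, and the Nr1h4 difference of -0.035 turned to 0.36 without heterozygote replicate 1 and to 0.63 without null replicate 1. The list of bile acid and cholesterol handling genes had 18 members measured, of which 10 were lower and 8 higher (median difference -0.19), and 4 were above background on all arrays. Fgfr4, the receptor through which intestinal FGF signals to liver, was 5.13 and 5.81 in heterozygotes and 4.06, 4.71 and 5.07 in nulls, a difference of -0.86 (limma adjusted p = 0.986 untrended). Slc10a2, Slc51b, Fgf15 and Fabp6 were at or below background on every array.

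**Figure D3:**
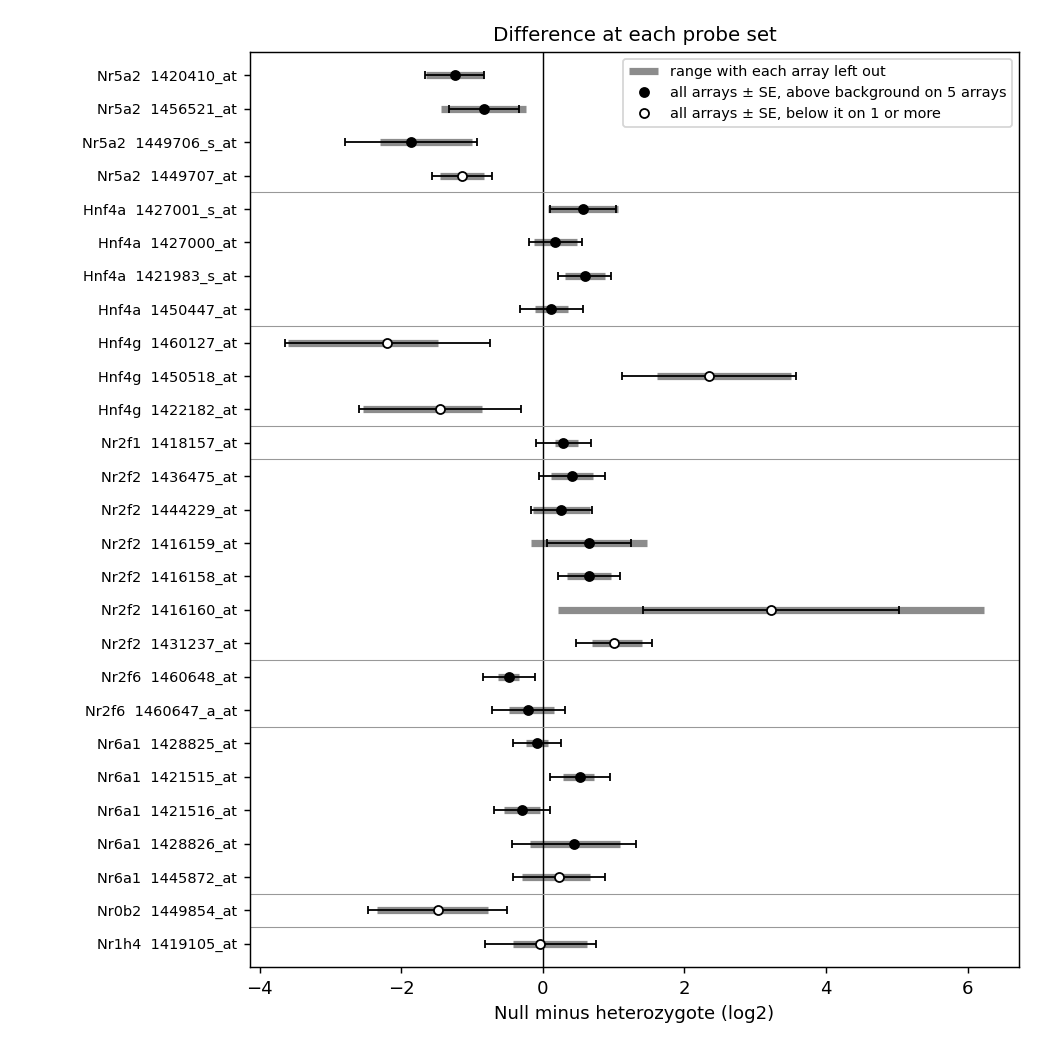
Null minus heterozygote log2 difference (horizontal axis) at each of the 27 probe sets, as a point with its untrended SE, over the range of values with each array left out (grey bar). The 4 Nr5a2 bars stay below 0, and the bar of Nr2f2 1416160_at runs from 0.21 to 6.23.

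Taking all 27 probe sets, 12 had lower and 15 higher means in nulls, with a median difference of 0.17 against -0.0099 over all 45037. That median was -0.0115 without heterozygote replicate 1, 0.0657 without heterozygote replicate 2, and 0.0155 once dim values were lifted to the background level. In 5 of the 27 every null lay below both heterozygotes and in 4 every null lay above both, against 10.1% and 9.9% of all probe sets. With the brightest probe set of each gene, 6 of 9 were lower (median -0.085 against -0.012 over all genes), and 6 of 9 were above background on all arrays, against 57.0% of genes. This median was -0.236 and -0.426 without heterozygote replicates 1 and 2, -0.134, -0.364 and -0.368 without null replicates 1, 2 and 3, and 0.102 without dim probe sets, so neither median settles a direction. The brightest Nr5a2 probe set ranked 8099th by size of difference among all tested.

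The wider family was measured for 35 of the 39 other receptors listed, and neither limma fit called any. Of these, 21 were lower and 14 higher in nulls (median -0.11). Every null lay below both heterozygotes for 2 (Nr5a1 and Ppard) and above both for 1 (Vdr), named after their values were seen, against 10.1% and 9.82% of all genes by their brightest probe set. Nr5a1, the closest relative of Nr5a2, was at or below background on every array, and Ppard and Vdr were above it on 2 and 3 arrays. Among the 19 nuclear receptor genes above background on all arrays, Nr5a2, chosen with its difference known, had the largest difference. Groups did not overlap for 2 of the 19, Nr5a2 and Nr2f6, both lower in nulls. Over all genes 10.1% had every null below both heterozygotes and 9.82% every null above both, so nothing is read from this count. Of the 13 outside the 9 genes described, the circadian repressor gene Nr1d2 had -1.08 and the immediate early gene Nr4a1 had 1.04. Groups overlapped at both, and the remaining 11 lay between -0.20 (Thra) and 0.18 (Rarb).

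**Figure D4:**
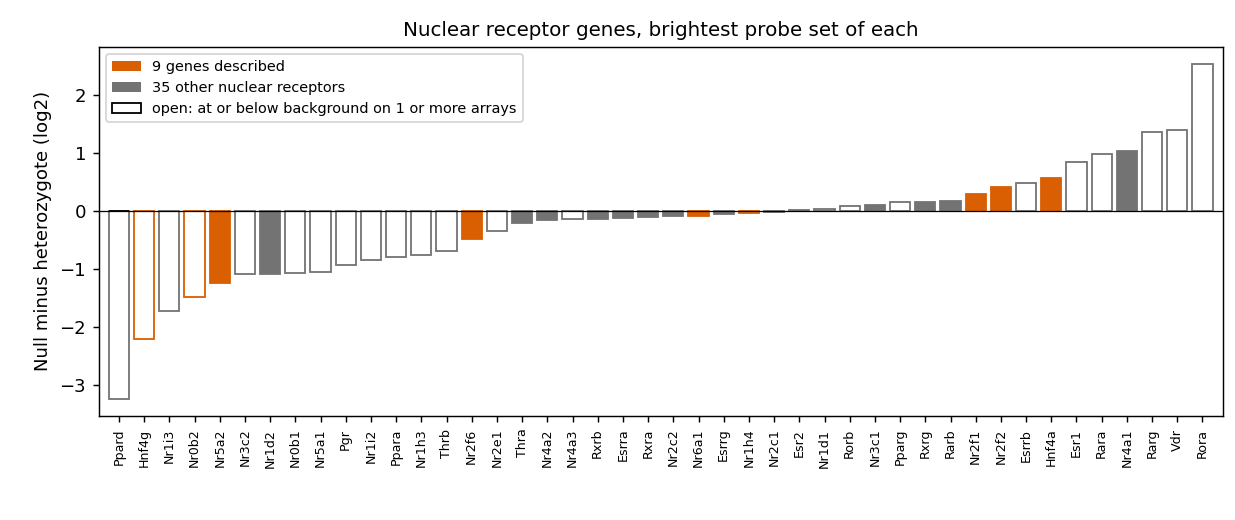
Null minus heterozygote log2 difference (vertical axis) of the brightest probe set of each of 44 nuclear receptor genes, with the 9 described here in orange and unfilled bars where signal was at or below background on 1 or more arrays. Among filled bars Nr5a2 is the lowest at -1.24, and most of the tall bars are unfilled.

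Coregulators of these receptors were measured for 16 of 18 listed, with 6 lower and 10 higher in nulls (median 0.054), and none was called. Prox1, a homeodomain protein that binds NR5A2 and HNF4A as a corepressor, was 8.05 and 8.43 in heterozygotes and 7.68, 7.55 and 7.41 in nulls, a difference of -0.70 (SE 0.36). Med1, a Mediator subunit that contacts receptors, had 8.20 and 8.11 against 8.39, 9.19 and 8.51 (0.54), and Nrip1, a corepressor known as RIP140, had 7.79 and 7.39 against 8.36, 8.04 and 7.99 (0.54). The groups did not overlap at these 3 genes, and adjusted p was 0.976 or more in the untrended limma fit. Of the 16, every null lay below both heterozygotes for 2 (12.5% against 10.1% of all genes). Every null lay above both for 2 (12.5% against 9.82%), so such genes were about as common as over all genes. The gene not described, Ppargc1b, was lower in nulls and at or below background on every array.

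Of 15 exocrine genes measured that are known as NR5A2 and PTF1 targets, 12 were lower in nulls (median -0.86), 5 with every null below both heterozygotes (33.3% against 10.1% of all genes). These 5 were Cpa1, Bhlha15, Clps, Cela2a and Ctrl, and the last pair lay at or below background on every array. Neither limma fit called any at an adjusted p under 0.05. Bhlha15, which encodes the acinar factor MIST1, had 4.92 and 4.51 in heterozygotes and 3.65, 3.86 and 3.24 in nulls, a difference of -1.13 (limma adjusted p = 0.854 untrended). Clps, the colipase gene, had 6.71 and 6.90 against 6.09, 6.22 and 5.53, a difference of -0.86. Cela2a, Ctrb1, Ctrl, Cpb1 and Rbpjl were at or below background on every array, and 3 of the 15 were above it on all, so the median rests on dim genes. The list's summed signal was 344 and 341 in heterozygotes and 117 to 230 in nulls. By the median of the genes' deviations from their own means the groups overlapped, at 0.501 and 0.643 in heterozygotes and -0.374, 0.587 and -0.758 in nulls.

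Of 18 liver and gut genes measured that are known as HNF4 targets, 11 were lower and 7 higher (median -0.068), and none was called. Proc, the gene of the anticoagulant protein C, had log2 signals of 3.76 and 4.30 in heterozygotes and 5.60, 5.71 and 5.82 in nulls, a difference of 1.68 (SE 0.37, limma adjusted p = 0.513 untrended and 0.817 trended). Apoa1, the main apolipoprotein gene of HDL, had 3.61 and 4.03 against 5.38, 6.01 and 4.07. The groups did not overlap at either gene, although null replicate 3 lay close to heterozygote replicate 2 for Apoa1. Of the 18, every null lay above both heterozygotes for 2 (11.1% against 9.82% of all genes). Every null lay below both for 1 (5.56% against 10.1%). This was Tat, above background on 2 arrays, with 3.19 and 3.31 against 1.38, 1.10 and 2.16, a difference of -1.70.

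Likeness to Nr5a2 was measured as the root mean square difference of log2 signal over the 5 arrays, after each probe set's mean was subtracted, against 18149 probe sets with a symbol and signal above background throughout. The 5 nearest genes to 1420410_at were Klhl2 (0.104), Sepsecs (0.115), Dnajb14 (0.129), Mrc2 (0.166) and Tbc1d10a (0.172). Nr5a2's own 1449707_at, 1456521_at and 1449706_s_at lay at 0.306, 0.68 and 0.946. Those 5 genes are the nearest of 18149 probe sets, so nothing is read from their lying closer than Nr5a2's own probe sets. Of these, 1449707_at was not above background throughout and was not ranked. For such a ranking 5 arrays are few.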

How the data were processed

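Linear intensities of 45101 probe sets per array were deposited by the authors. The submitters' processing notes name GCOS and RMA with no version or role, and the sources used here do not give how background was treated. Log2 was taken with no offset, followed by quantile normalisation, and 64 control probe sets were left out, leaving 45037. Background on each array was the 95th percentile of 27 Bacillus subtilis control probe sets. Folds against signal at background are bounds from the bright group's mean.

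Genotypes were compared with limma 3.58.1 in R 4.3.3, two-sided, with Benjamini-Hochberg adjustment over all tested probe sets. The fits were also run on simulated data, where the untrended fit called few of the differences put in, so its count of 0 does not show that signals were equal. With 2 against 3 arrays the precision is limited by their number. Gene symbols are those of GEO's annotation of the array. Lists used the brightest probe set of each gene. The members, lists and tests were chosen with earlier results of these data known. All probe sets of the 9 genes are named. From other lists, the genes named are those called by either fit and otherwise at most 3 with the largest difference among those above background on all arrays whose groups did not overlap. Markers and genes at background are named beside the results they bear on.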

Additional observations from a re-analysis of the deposited data

How the results depend on the processing

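The untrended limma fit called 0 probe sets under every alternative run: each array left out, median centring, no normalisation (which moved the median of all probe sets to -0.117), an offset of 16, values raised to background, no dim probe sets, and the replicate block. The trended fit called 8, with 11 and 4 when heterozygote replicates 1 and 2 were left out, and 0, 1 and 1 when null replicates 1, 2 and 3 were. The receptor probe sets called numbered 0 in every setting except 1 (Nr2f2 1416160_at) in the trended fit without heterozygote replicate 1. The direction held at 18 of the 27 probe sets under every alternative, including all of Nr5a2, where non-overlapping groups fix it when an array is left out. The other 9 reversed in 16 of 317 values in all. The 317 include values that could not reverse: the trended fit and the fit without dim probe sets leave each difference unchanged. Raising values to background also leaves probe sets above it on all arrays unchanged. With an array left out, differences ranged from -0.13 to 0.48 (Hnf4a 1427000_at), -0.11 to 0.35 (Hnf4a 1450447_at), -0.14 to 0.67 (Nr2f2 1444229_at), -0.17 to 1.47 (Nr2f2 1416159_at), -0.47 to 0.16 (Nr2f6 1460647_a_at), -0.24 to 0.066 (Nr6a1 1428825_at), -0.18 to 1.09 (Nr6a1 1428826_at), -0.29 to 0.66 (Nr6a1 1445872_at) and -0.43 to 0.63 (Nr1h4). Nr1h4 had 0.037 with median centring and 0.029 with the offset of 16, and Nr6a1 1445872_at had -0.060 with values raised to background. That last value is only the difference between the groups' background levels, since 1445872_at was above background on no array. Hnf4g 1460127_at and 1422182_at, Nr0b2 and Nr1h4 had the same value for the same reason. The cause of the other reversals was not tested. Replicate numbers are shared by the genotypes without a stated pairing. Deviations of same-numbered arrays from their group means were hardly correlated across probe sets (r = -0.0167 and 0.00804). The block is therefore given only here: it called 0 probe sets and gave -0.29 at Nr6a1 1445872_at. Null replicate 3 has no heterozygote of its number, so the block repeats the differences found without that array. Both sets are counted among the 317 values and the 16 reversals. Probe sets near background (Hnf4g, Nr0b2, Nr1h4) had no level that these arrays could resolve. With an offset of 16 the Nr5a2 differences were -1.19, -0.72, -1.44 and -0.34.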
